A study of Mus musculus with 20 samples.

Results

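The genes described here are the nuclear receptors of mouse liver and the coregulators that work with them. They were chosen by name: 41 gene symbols were listed, and a gene entered where the platform's probe annotation gave exactly that symbol to a probe set, the group of short probes that reads 1 transcript. Of the 41 genes, 39 were measured, by 109 probe sets, out of 18193 genes named by the annotation and 45037 probe sets in all. Nr1h2 and Ncor1 were listed, but no probe set carries these symbols in the annotation used here.

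Liver RNA came from male mice, 9 weeks old at the start, that were dosed once a day by oral gavage and killed at 96 h. Wild-type mice (C57BL/6, PXR+/+, called WT here) and mice without a working pregnane X receptor (PXR-/-, from the C57BL/6NTac line, and PXR-KO in the figures) received either vehicle (0 mg/kg) or CMP013 at 150 mg/kg, a compound that inhibits the protease BACE1. Each of the 4 groups held 5 animals, each with 1 Affymetrix whole-genome mouse array. All animals were fasted for the last hours before sampling. The knockout line and its C57BL/6NTac background came together, so the effect of the deleted gene and that of the background cannot be told apart, and RNA integrity numbers in the labels were 9.3 to 10 in PXR+/+ and 8.7 to 9.6 in PXR-/- livers. Each deposited value sets 1 animal against the vehicle mean of its own genotype, as a ratio. A ratio of 1 therefore stands for the vehicle mean, and neither the level of a gene nor its vehicle levels in the 2 genotypes can be compared.

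Nuclear receptors are transcription factors that small lipophilic molecules switch on or off. Many of them bind DNA with the retinoid X receptor as partner, recruit coactivators when a ligand is bound, and hold corepressors when it is not. In the liver, PXR and the constitutive androstane receptor CAR turn on drug-metabolising enzymes and transporters, HNF4 alpha maintains the hepatocyte program, and FXR, LXR, the PPARs and the thyroid hormone receptors govern bile acid, sterol, fatty acid and energy metabolism.

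In WT mice, 11 of the 39 genes passed the test (adjusted p under 0.05, limma over all 45037 probe sets), 2 higher and 9 lower with CMP013. That is 28.2% of the genes, where 17.7% of all 18193 genes passed in either direction, 9.72% higher and 7.98% lower. In PXR-/- mice, 6 of the 39 passed, 4 higher and 2 lower, or 15.4% against a background of 4.64%, with 2.50% higher and 2.14% lower. The WT and the PXR-/- responses differed for 6 genes, 3 in each direction, or 15.4% where 13.6% of all genes differed. The 39 genes varied less among vehicle animals than all genes did (median standard deviation of log2 ratios 0.183 against 0.221). Where a gene had several probe sets, the choice among them favoured a small spread of this kind. The part of this spread in the shares was not tested. No test of these shares was made, and in WT mice their order depended on the processing, as given next. The median log2 fold change of the 39 genes was -0.25 in WT mice, where the median of all genes was -0.0011, and -0.061 in PXR-/- mice, where it was -0.015. Of the 39 changes, 26 were below 0 in WT and 21 in PXR-/- mice. Over all 18193 genes, 9122 were below 0 in WT and 9539 in PXR-/- mice.

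The WT count depended on a few animals and on scaling. WT vehicle replicates 3 and 4 and PXR-/- vehicle replicates 2 and 4 stand apart from the other vehicle animals on the second principal component of all probe sets (scores of 49.2 to 73.3, against -8.23 to 15.6), and WT CMP013 replicate 5 had the widest spread of the treated animals (standard deviation of its log2 ratios 0.704, against 0.587 to 0.611 in the other treated WT animals). Without these vehicle animals, 4 of the WT calls (Esr1, Hnf4a, Nr3c1 and Thra) and 4 of the PXR-/- calls (Esr1, Nr1i3, Nr4a1 and Nr6a1) were left, and without WT vehicle replicate 3 alone 7 WT calls were left. Quantile normalization left 1 WT call, Esr1, and 3 PXR-/- calls. When each array was shifted to the median of 8 hepatocyte marker genes, which moved the median of all probe sets to 0.08 in WT and 0.18 in PXR-/- mice, the WT calls were 3 higher and 1 lower and the PXR-/- calls 4 higher and 0 lower. In 4 settings that cut the WT count, the share of the 39 genes called in WT mice changed as follows. It was 2.56% against 5.34% of all genes with quantile normalization and 10.3% against 15.6% under the hepatocyte shift. It was 5.13% against 8.38% when a replicate block was fitted, and 10.3% against 9.04% without the vehicle animals that stand apart. In the first 3 it lay below the background. For PXR-/- mice the same 4 settings gave 7.69% against 1.53%, 10.3% against 5.41%, 2.56% (1 gene) against 0.374%, and 10.3% against 1.04%. With arrays shifted to a common median the shares were 30.8% against 17.6% in WT and 15.4% against 4.68% in PXR-/- mice. In WT mice, trend and robust variances called 10 of the 39, array weights 12, all groups in 1 fit 15 and the filter on spread 13. The shares of all genes in these last settings are not given here. Over all genes the hepatocyte shift moved the share of higher genes among those called from 54.9% to 72.3% in WT and from 53.9% to 86.2% in PXR-/- mice. The 6 genes whose responses differed between genotypes were the same with each of the 20 animals left out in turn and under the hepatocyte shift, 4 of them were left without the vehicle animals that stand apart, and 2 with quantile normalization.

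**Figure D1:**
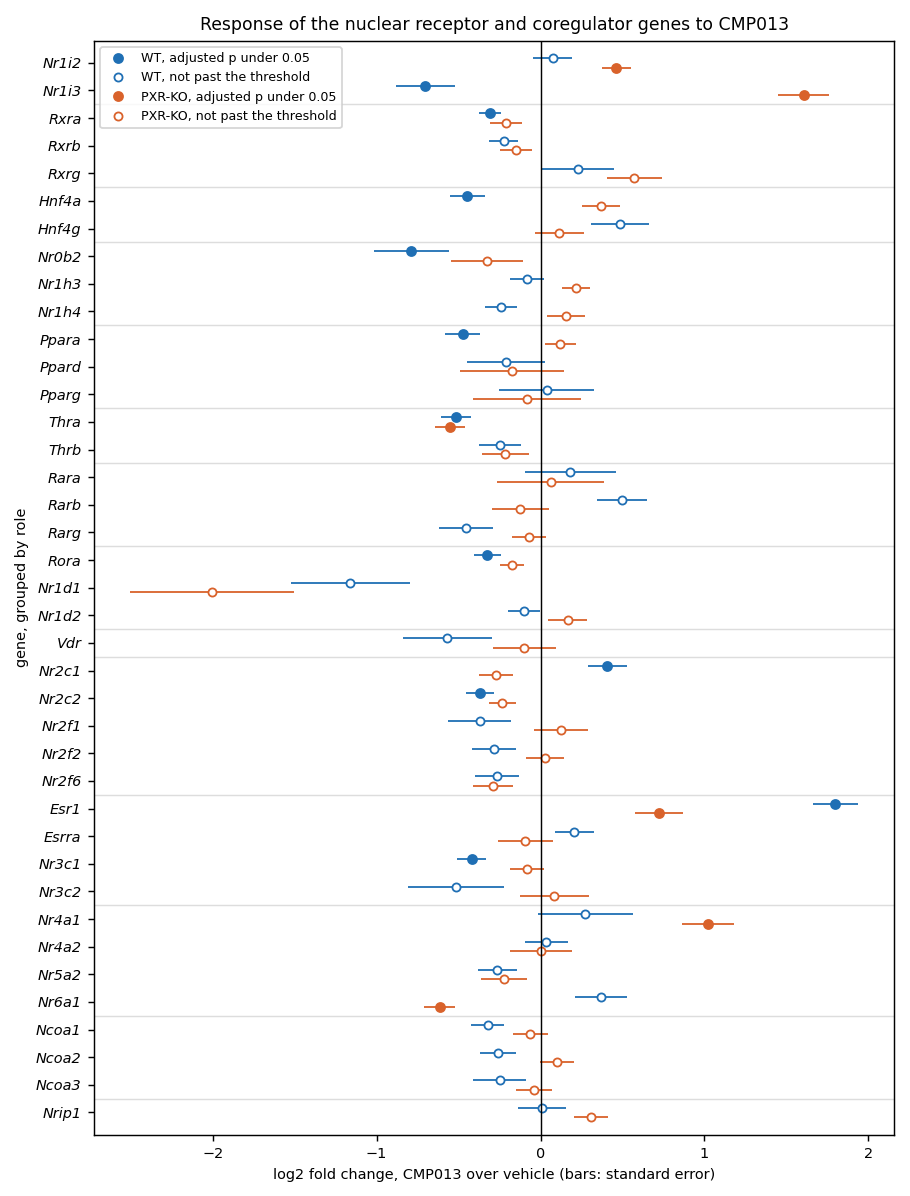
Log2 fold change of CMP013 over vehicle for each of the 39 genes, WT in blue and PXR-/- in orange, with grey lines between roles (bars: standard error; filled: adjusted p under 0.05; 5 animals per group). Nr1i3 lies on opposite sides of 0 in the 2 genotypes, and Esr1 is the highest gene in WT mice, at 1.80.

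The sequences upstream of the 3 genes the comparison starts from are shown first. They are Nr1i2, which encodes PXR, Nr1i3, which encodes CAR, and Hnf4a, a known regulator of both in hepatocytes. Each is the 250 bases before a RefSeq transcription start on build GRCm38.p6, printed 5′ to 3′ on the gene's strand, and capitals mark an E-box (CACGTG), the sequence that CLOCK and related factors bind. For Hnf4a the downstream of its 2 starts is shown.
Nr1i2, chr16:38294825-38295074, minus strand: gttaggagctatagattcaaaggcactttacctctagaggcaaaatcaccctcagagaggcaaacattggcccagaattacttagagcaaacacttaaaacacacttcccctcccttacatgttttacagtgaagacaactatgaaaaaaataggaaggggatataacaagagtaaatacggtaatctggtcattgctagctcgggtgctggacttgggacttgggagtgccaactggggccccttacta
Nr1i3, chr1:171213720-171213969, plus strand: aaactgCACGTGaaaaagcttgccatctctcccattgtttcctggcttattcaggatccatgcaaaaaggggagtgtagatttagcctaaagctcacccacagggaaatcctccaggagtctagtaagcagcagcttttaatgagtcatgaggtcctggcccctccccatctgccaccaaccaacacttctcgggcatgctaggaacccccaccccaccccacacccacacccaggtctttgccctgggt
Hnf4a, chr2:163546905-163547154, plus strand: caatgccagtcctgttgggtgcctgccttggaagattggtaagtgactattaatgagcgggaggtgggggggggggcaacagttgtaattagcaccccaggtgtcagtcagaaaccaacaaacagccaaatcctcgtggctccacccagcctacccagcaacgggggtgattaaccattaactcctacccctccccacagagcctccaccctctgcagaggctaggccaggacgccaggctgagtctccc

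Motifs, 3 in all, were searched on both strands of such windows, and 34 of the 39 genes had a window. The nuclear receptor half-site AGGTCA was in the window of 9 of the 34 genes (26.5%) and of 15.8% of all 27025 genes with a window. The E-box was in 4 of the 34 (Nr1i3, Nr0b2, Thrb and Rara; 11.8%) against 6.86%, and begins 244 bases before the start of Nr1i3. The GC box GGGCGG was in 21 of the 34 (61.8%) against 35.4%. None of these motifs lies in the windows printed for Nr1i2 and Hnf4a. Hnf4a counts among the 21 through the window of its upstream start, not printed, where a GC box begins 44 bases before the start. These are matches of letters and no test was made of them.

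Nr1i2 is the targeted gene. Its ratios to the vehicle mean were 0.873, 0.900, 1.13, 1.12 and 1.04 in WT vehicle and 0.863, 1.14, 1.11, 1.03 and 1.19 in WT CMP013 animals. The WT groups overlapped. In PXR-/- mice the ratios were 1.10, 0.999, 0.958, 1.01 and 0.935 with vehicle and 1.252, 1.34, 1.58, 1.38 and 1.36 with CMP013, so that every treated animal lay above every vehicle animal. Overlap is described gene by gene here and below, without the share of all genes that had none. On the log2 scale the change was 0.08 ± 0.12 (SE, adjusted p = 0.747) in WT and 0.46 ± 0.09 (adjusted p = 0.0250) in PXR-/- mice. The difference of the 2 responses was -0.39, with a 95% interval of -0.69 to -0.09 before adjustment and an adjusted p of 0.0919. The other Nr1i2 probe set changed by -0.29 in WT (adjusted p = 0.148) and rose by 0.54 in PXR-/- mice (adjusted p = 0.0435), and there the responses differed (-0.82, adjusted p = 0.00362). Which part of the gene the line lacks, and whether either probe set reads that part, is stated in no source used here, so the values do not check the genotype labels. The PXR-/- call of the first probe set was lost without any 1 of PXR-/- vehicle replicates 2 to 5 or CMP013 replicates 2 and 4 (adjusted p up to 0.0675).

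Nr1i3 encodes CAR, the closest relative of PXR, which shares many of its target genes. Its ratios were 1.16, 1.11, 1.11, 0.958 and 0.850 in WT vehicle animals and 0.455, 0.715, 0.661, 0.530 and 0.898 in WT CMP013 animals. In 4 of the 5 treated WT animals the ratio lay below all vehicle animals, and replicate 5 lay within the vehicle range. Ratios in PXR-/- mice were 1.24, 0.914, 1.11, 0.861 and 0.888 with vehicle and 3.99, 3.17, 2.58, 3.05 and 2.53 with CMP013. Every treated PXR-/- animal was thus above every vehicle animal. Nr1i3 fell in WT mice (log2 fold change -0.70 ± 0.18 SE, adjusted p = 0.0283) and rose 3.04-fold in PXR-/- mice (1.61 ± 0.15 SE, adjusted p = 0.00138). The WT response minus the PXR-/- response was -2.31 on the log2 scale (SE 0.24, adjusted p = 8.25e-06), the largest difference among the 39 genes. This difference passed with each of the 20 animals left out and under all 11 other alternatives tried. The fall in WT mice was less firm. It did not pass without any 1 of WT vehicle replicates 1, 2 and 3 or CMP013 replicates 3 and 4 (adjusted p up to 0.0694), while its log2 fold change stayed between -0.83 and -0.58. Nr1i3 has 1 probe set.

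Hnf4a encodes HNF4 alpha, a receptor that binds DNA as a pair with itself and controls many hepatocyte genes. Its ratios were 0.927, 1.01, 0.878, 0.903 and 1.14 with vehicle and 0.643, 0.836, 0.723, 0.683 and 0.681 with CMP013 in WT mice. All treated WT animals lay below the vehicle animals. Among PXR-/- animals the ratios were 1.04, 0.755, 1.06, 1.00 and 1.09 with vehicle and 1.19, 1.24, 1.252, 1.46 and 1.21 with CMP013. All treated PXR-/- animals lay above the vehicle animals, although the change did not pass (0.37 ± 0.12 SE on the log2 scale, adjusted p = 0.119). The change in WT mice was -0.45 ± 0.11 (SE, adjusted p = 0.0199), and the responses differed by -0.82 (SE 0.15, adjusted p = 0.00202). The 3 other Hnf4a probe sets gave log2 fold changes of -0.52, -0.29 and -0.49 in WT mice, of which the first 2 passed (adjusted p = 0.0231 and 0.0401), and values of -0.08 to 0.04 in PXR-/- mice, so that the positive value there rests on 1 of 4 probe sets. The difference between genotypes also passed at 1 of the 4: it was -0.55, -0.33 and -0.41 at the others (adjusted p = 0.0584, 0.0749 and 0.237). Hnf4g, its close relative, gave 0.49 in WT (adjusted p = 0.0988) and 0.12 in PXR-/- mice (adjusted p = 0.712).

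**Figure D2:**
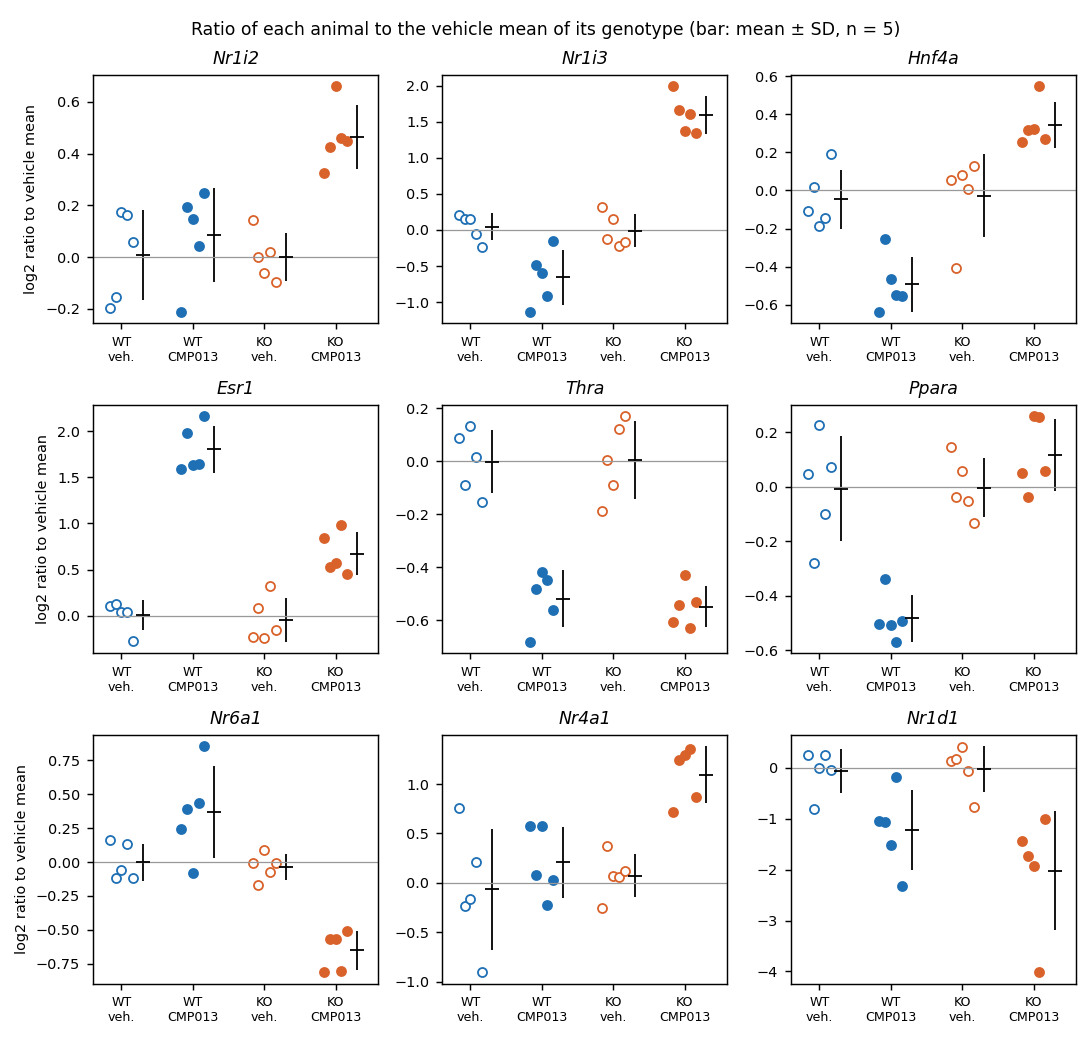
Log2 ratio of every animal to the vehicle mean of its genotype for 9 genes, with vehicle animals as open and CMP013 animals as filled circles (bar: mean ± SD, n = 5; each panel has its own axis). Treated and vehicle animals of PXR-/- mice overlap for Ppara alone among these genes. In WT mice Hnf4a, Esr1, Thra and Ppara have no overlap, and the other genes shown overlap. The 9 genes were picked for display, and the share of all genes without overlap is not given here.

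The retinoid X receptors are the shared partners of PXR, CAR, FXR, LXR and the PPARs. Rxra ratios were 0.784 to 0.850 in WT CMP013 and 0.980 to 1.03 in WT vehicle animals. The fall was small, -0.31 ± 0.07 (SE, log2), and passed (adjusted p = 0.0154). The PXR-/- change was -0.21 ± 0.10 (SE, adjusted p = 0.255), and the difference from the WT response had a 95% interval of -0.32 to 0.12. Both other Rxra probe sets were above 0 without passing (0.13 and 0.31 in WT mice), and the mean over the 3 probe sets was 0.04 in WT mice, so the direction for Rxra holds for 1 probe set. Rxrb and Rxrg did not pass in either genotype.

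Among the bile acid and sterol receptors, Nr0b2 passed in 1 genotype. It encodes SHP, which lacks a DNA-binding domain and represses other receptors, and which FXR induces. Its ratios were 0.705, 1.18, 1.15, 0.739 and 1.29 in WT vehicle and 0.570, 0.466, 0.843, 0.449 and 0.587 in WT CMP013 animals. The groups overlapped at CMP013 replicate 3. Nr0b2 fell by 0.79 on the log2 scale in WT mice (SE 0.23, adjusted p = 0.0441) and gave -0.33 in PXR-/- mice (adjusted p = 0.446). The WT call was lost without any 1 of WT vehicle replicates 2, 3 and 5 or CMP013 replicates 1, 2, 4 and 5 (adjusted p up to 0.0978). Nr1h4, which encodes FXR, and Nr1h3, which encodes LXR alpha, gave -0.24 and -0.08 in WT and 0.16 and 0.22 in PXR-/- mice, and neither passed.

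Ppara encodes the receptor that drives fatty acid oxidation in fasting liver. Ratios of the WT CMP013 animals were 0.705, 0.790, 0.704, 0.674 and 0.711, and those of the WT vehicle animals 1.03, 0.823, 1.17, 0.934 and 1.05. No treated WT animal reached the vehicle range. In knockout mice the ratios were 1.11, 0.973, 1.04, 0.964 and 0.912 with vehicle and 1.04, 0.975, 1.20, 1.19 and 1.04 with CMP013, and the groups overlapped. Ppara fell in WT mice (-0.48 ± 0.11 SE on the log2 scale, adjusted p = 0.0146), gave 0.12 in PXR-/- mice (adjusted p = 0.515), and the responses differed by -0.60 (SE 0.13, adjusted p = 0.00723). A second of its 3 probe sets also fell in WT mice (-0.43, adjusted p = 0.0130). The difference between genotypes passed at 1 of the 3, and was -0.39 and -0.20 at the others (adjusted p = 0.102 and 0.381). Without the vehicle animals that stand apart, neither the WT fall nor the difference passed. Ppard and Pparg did not pass in either genotype.

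Thra, which encodes thyroid hormone receptor alpha, fell in both genotypes. Ratios with CMP013 were 0.623, 0.716, 0.748, 0.734 and 0.678 in WT and 0.656, 0.686, 0.743, 0.646 and 0.692 in PXR-/- mice. Vehicle animals lay between 0.899 and 1.10 in WT and between 0.879 and 1.13 in PXR-/- mice, so neither genotype had any overlap. The log2 fold changes were -0.52 ± 0.09 (SE, adjusted p = 0.00475) and -0.55 ± 0.09 (SE, adjusted p = 0.0144), and the 95% interval of their difference was -0.22 to 0.29. Each call passed with every animal left out in turn. Under the other alternatives the WT call was lost in 2 of 13 (limma, adjusted p up to 0.0903). The PXR-/- call was lost in 5 of 12, among them quantile normalization and the fit without the vehicle animals that stand apart (limma, adjusted p up to 0.116). Probe sets disagreed on the size of the WT change: another Thra probe set fell by 1.66 in WT and by 0.62 in PXR-/- mice, where the responses differed (-1.04, adjusted p = 0.0186), and 1 more fell by 0.50 in WT mice (adjusted p = 0.00839) and gave -0.29 in PXR-/- mice (adjusted p = 0.265). Thrb, the main thyroid hormone receptor of the liver, gave -0.25 and -0.21, and did not pass.

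Among the 4 retinoic acid and vitamin D receptors none passed by limma, and 2 in WT and 0 in PXR-/- mice had an unadjusted p under 0.05. Rarb came closest, with ratios of 1.66, 1.87, 1.23, 1.41 and 1.06 in WT CMP013 animals, 4 of them above the highest vehicle animal (1.11), and a log2 fold change of 0.50 (adjusted p = 0.0559). Among the alternatives it passed, for example, with array weights, under the hepatocyte shift and without WT CMP013 replicate 5.

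The ROR and REV-ERB receptors form an arm of the circadian clock. Nr1d1, which encodes REV-ERB alpha, had the lowest log2 fold change of the 39 genes in both genotypes, and neither passed: -1.16 ± 0.36 (SE, adjusted p = 0.0597) in WT and -2.002 ± 0.50 (SE, adjusted p = 0.0567) in PXR-/- mice. Its ratios with CMP013 were 0.484, 0.478, 0.350, 0.881 and 0.199 in WT and 0.370, 0.301, 0.261, 0.0617 and 0.499 in PXR-/- mice, against 0.573 to 1.19 and 0.590 to 1.32 with vehicle. The groups overlapped in WT mice and did not in PXR-/- mice, and animals treated alike differed several-fold from each other. Nr1d1 passed in WT mice without WT vehicle replicate 2 or without CMP013 replicate 4, and in PXR-/- mice without CMP013 replicate 4 or 5. Rora fell in WT mice by 0.32 (SE 0.08, adjusted p = 0.0291), a call lost without any 1 of WT vehicle replicates 1, 3 and 4 or CMP013 replicates 1, 2 and 4 (adjusted p up to 0.0735). Its 9 probe sets went both ways in WT mice, from -0.56 (adjusted p = 0.00533) to 0.60 (adjusted p = 0.0323), and the responses differed at both of these probe sets, in opposite directions. Nr1d2 did not pass.

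The orphan receptors Nr2c1 (TR2) and Nr2c2 (TR4), which bind DNA together, moved in opposite directions in WT mice. Nr2c1 ratios were 1.30, 1.59, 1.06, 1.47 and 1.19 with CMP013 and 0.994, 0.917, 1.01, 0.952 and 1.07 with vehicle. All but CMP013 replicate 3 lay above the vehicle animals, and Nr2c1 rose by 0.41 on the log2 scale (SE 0.12, adjusted p = 0.0455), a call lost without any 1 vehicle animal or any 1 of CMP013 replicates 1, 2 and 4 (adjusted p up to 0.0976). Its PXR-/- value was -0.27 (adjusted p = 0.183), and the responses differed by 0.68 (SE 0.15, adjusted p = 0.00708), as they did at 2 more of its 5 probe sets (1.24 and 1.08, adjusted p = 0.000181 and 0.00985). Another of the 5 went the other way without passing, at -0.53 in WT mice and -0.57 in the difference. With the mean over all Nr2c1 probe sets, neither the WT rise nor the difference passed. Nr2c2 fell in WT mice (-0.37 ± 0.08 SE, adjusted p = 0.0154) with no overlap between groups, gave -0.23 in PXR-/- mice (adjusted p = 0.150), and the 95% interval of the difference was -0.35 to 0.08. Of the COUP transcription factors, Nr2f1, Nr2f2 and Nr2f6 did not pass by the probe set that stands for the gene, and 1 other probe set of Nr2f6 fell in WT mice (-0.77, adjusted p = 0.0254).

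Esr1, which encodes estrogen receptor alpha, was the member with the largest rise in WT mice. Ratios were 1.07, 1.09, 1.03, 1.02 and 0.824 in WT vehicle and 3.02, 3.96, 3.11, 3.12 and 4.49 in WT CMP013 animals. Those of PXR-/- animals were 0.849, 1.05, 0.847, 1.24 and 0.898 with vehicle and 1.79, 1.44, 1.48, 1.98 and 1.36 with CMP013. The groups did not overlap in either genotype, and the lowest treated WT animal was above the highest treated PXR-/- animal. Esr1 rose 3.48-fold in WT (log2 1.80 ± 0.14 SE, adjusted p = 5.30e-05) and 1.65-fold in PXR-/- mice (0.72 ± 0.15 SE, adjusted p = 0.0294), and the rise was larger in WT mice by 1.08 on the log2 scale (SE 0.20, adjusted p = 0.00191). The WT rise passed under all 13 alternatives and with each animal left out, while the PXR-/- rise was lost without any 1 of PXR-/- vehicle replicates 1, 2, 3 and 5 or CMP013 replicates 1, 2 and 4 (adjusted p up to 0.0753). A second probe set rose by 1.85 in WT and 1.13 in PXR-/- mice (adjusted p = 0.00909), with a difference that did not pass (0.72, adjusted p = 0.0669), and the last gave 0.50 and 0.30 without passing.

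Nr3c1, which encodes the glucocorticoid receptor, fell in WT mice. Ratios with CMP013 were 0.770, 0.770, 0.799, 0.686 and 0.717, all below the vehicle animals (0.908 to 1.14). The log2 fold change was -0.42 ± 0.09 (SE, adjusted p = 0.0116) in WT and -0.08 ± 0.10 (SE, adjusted p = 0.705) in PXR-/- mice, and the difference of -0.34 did not pass (adjusted p = 0.0956). None of its 5 other probe sets passed in WT mice; 4 of them were between -0.46 and -0.33 and 1 was at 0.05. Esrra and Nr3c2 did not pass.

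Nr4a1, an early-response orphan receptor, rose in PXR-/- mice. Ratios were 1.64, 2.37, 2.46, 2.56 and 1.83 with CMP013 and 0.841, 1.29, 1.05, 1.04 and 1.09 with vehicle, with no overlap. In WT mice vehicle animals alone ranged from 0.534 to 1.69 and treated animals lay inside that range. The log2 fold change was 1.02 ± 0.16 (SE, adjusted p = 0.00979) in PXR-/- and 0.27 ± 0.29 (SE, adjusted p = 0.606) in WT mice, and the difference did not pass (-0.75, adjusted p = 0.178). Nr6a1, which encodes germ cell nuclear factor, fell in PXR-/- mice. Its ratios were 0.569, 0.676, 0.674, 0.574 and 0.704 with CMP013 and 0.996, 0.888, 1.06, 0.952 and 0.993 with vehicle in PXR-/- mice, and 1.18, 1.31, 0.945, 1.35 and 1.81 with CMP013 in WT mice. All treated PXR-/- animals lay below the vehicle animals, while 4 of 5 treated WT animals lay above the highest WT vehicle animal (1.12). The log2 fold change was -0.62 ± 0.10 (SE, adjusted p = 0.00992) in PXR-/- and 0.37 ± 0.16 (SE, adjusted p = 0.165) in WT mice, and the responses differed by 0.98 (SE 0.18, adjusted p = 0.00188). A second Nr6a1 probe set also fell in PXR-/- mice (-0.46, adjusted p = 0.0269) and differed between genotypes (0.85, adjusted p = 0.0273). Its 5 probe sets ranged from -0.62 to 0.31 in PXR-/- and from -0.26 to 0.65 in WT mice. With the mean over them, neither the PXR-/- fall nor the difference passed (limma, adjusted p = 0.0541 for the difference). Nr4a2 and Nr5a2, which encodes LRH-1, did not pass.

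No coregulator of the 4 measured passed by limma, and 2 in WT and 1 in PXR-/- mice had an unadjusted p under 0.05. Ncoa1, Ncoa2 and Ncoa3, the p160 coactivators, gave log2 fold changes of -0.32, -0.26 and -0.25 in WT and of -0.06, 0.10 and -0.04 in PXR-/- mice. In WT mice every treated animal was below every vehicle animal for Ncoa1 (0.660 to 0.867 against 0.913 to 1.11) and for Ncoa2 (0.680 to 0.915 against 0.916 to 1.16), and adjusted p was 0.0581 and 0.152. At all other probe sets of these genes the WT groups overlapped. Log2 fold changes over the probe sets were -0.32 to 0.02 for Ncoa1 and -0.49 to -0.16 for Ncoa2. The share of all genes without overlap is not given here. The corepressor Nrip1 gave 0.01 and 0.31.

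**Figure D3:**
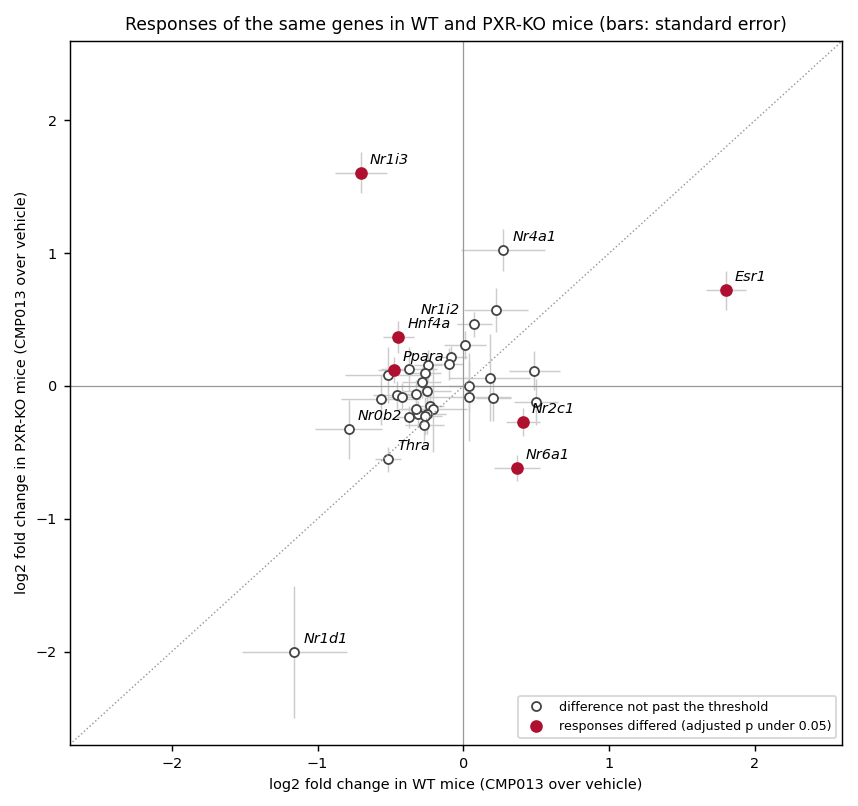
Log2 fold change in PXR-/- mice against that in WT mice for the 39 genes (bars: standard error; dotted line: equal responses; filled red: responses differed, adjusted p under 0.05). Nr1i3 and Hnf4a lie at upper left, Nr2c1 and Nr6a1 at lower right, and Thra lies on the line.

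Set side by side, 3 genes passed in both genotypes: Esr1 rose in both, Thra fell in both, and Nr1i3 went in opposite directions. Over all 18193 genes, 329 passed in both. Of the 8 genes that passed only in WT mice, the responses themselves differed for 3, Hnf4a and Ppara at 1 probe set each and Nr2c1 at 3. For the other 5, Rxra, Nr0b2, Rora, Nr2c2 and Nr3c1, no difference between genotypes was shown at the probe set that stands for the gene. Other probe sets of Rora did differ, in opposite directions. Of the 3 that passed only in PXR-/- mice, Nr1i2, Nr4a1 and Nr6a1, the responses differed for Nr6a1, at 2 probe sets. For Nr1i2 they differed only at the probe set that does not stand for the gene. Among the 11 called changes in WT mice, 8 were under 1.5-fold, and the same count over all genes is not given here.

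**Figure D4:**
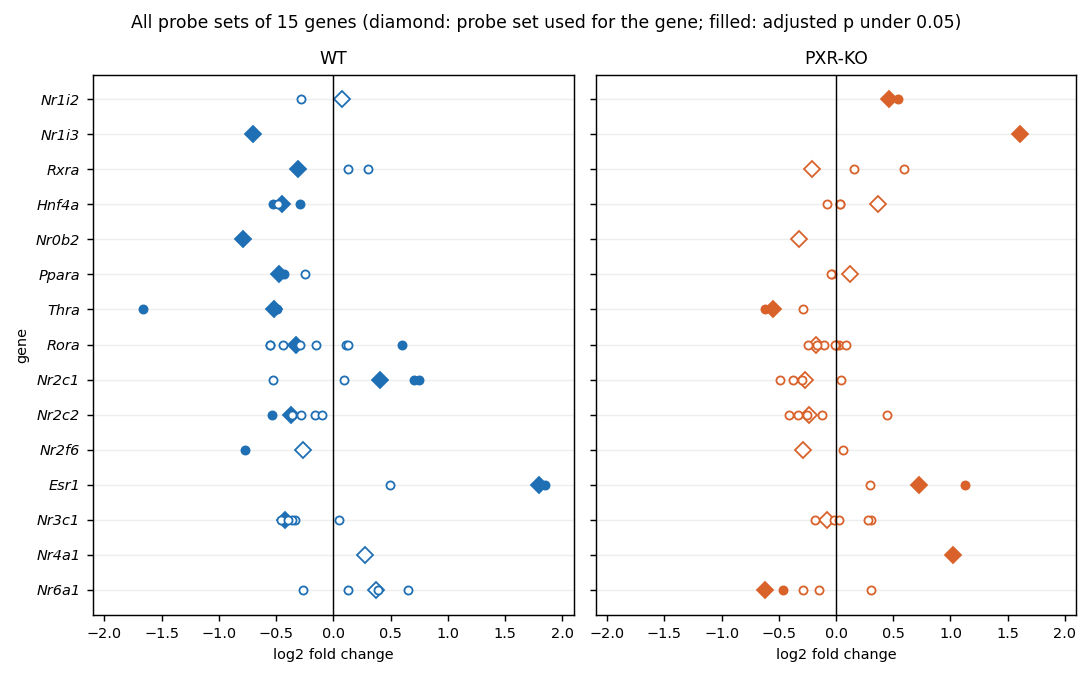
Log2 fold change of every probe set of the 15 genes with at least 1 call, or chosen to start from, in WT and PXR-/- mice (diamond: probe set that stands for the gene; filled: adjusted p under 0.05). Esr1, Thra and Hnf4a keep 1 direction over their probe sets in WT mice, and Rora and Rxra do not.

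Genes that the receptors are known to act on, and genes they work with, were counted beside them, 1 probe set per gene. Their counts stand against the same background, 17.7% of all genes called in WT and 4.64% in PXR-/- mice. Counts of differing responses stand against 13.6% of all genes. No list was tested. All 8 measured PXR and CAR target genes rose in WT mice (median log2 fold change 2.36). Cyp2b10, the standard CAR target, rose by at least 6.47, since 2 of its treated animals lay at the upper limit of the deposited scale, Cyp2c55 by 5.90, and Gstm3 by 3.44. In PXR-/- mice 1 of the 8 rose, the bile acid and drug transporter Slco1a4 (2.82, adjusted p = 0.00142), and 2 fell, Cyp2c55 (-3.92, adjusted p = 0.00492) and Cyp2b10 (-1.33, adjusted p = 0.0363), with a median of -0.13. The responses differed for 7 of the 8, each higher in WT, and Slco1a4 was the exception (0.90, adjusted p = 0.195).

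Of 13 measured chaperones and retention factors that hold CAR and PXR in the cytoplasm or release them, 2 rose and 3 fell in WT mice. Hsp90aa1, a chaperone of the complex, rose by 0.45 and the phosphatase subunit Ppp2r1a by 0.33, while Dnajc7 (-0.58), which retains CAR in the cytoplasm, the receptor Egfr (-0.95), whose signalling keeps CAR inactive, and Foxo1 (-0.80), a partner of CAR, fell. Just 1 gene of the 13, Epha2, rose in PXR-/- mice (0.59).

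Of 11 glucocorticoid receptor target genes, 5 fell and 1 rose in WT mice, with a median of -0.64. Those that fell included Tsc22d3 (-1.28), Dusp1 (-1.25) and Pck1 (-0.64), the gluconeogenic enzyme, and Lcn2, also an acute-phase gene, rose by 1.26. In PXR-/- mice 2 rose, Lcn2 (3.15) and Per1 (0.83), which is also in the list of clock genes, with a median of 0.47, and the responses differed for 5 of the 11, each lower in WT. Of 13 HNF4 alpha target and liver factor genes, 5 fell in WT mice, among them Onecut1 (-1.50), G6pc (-0.98) and Foxa3 (-0.60), and 0 passed in PXR-/- mice (limma; 4 had an unadjusted p under 0.05), where the lowest adjusted p was 0.0707 for G6pc (-0.99). The responses differed for 2 of the 13, Foxa3 and Cebpb, a share of 15.4%, close to the 13.6% of all genes.

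Targets of PPAR alpha were split, and 2 of the 10 genes were called in WT mice, a share close to the background. In WT mice 1 of 10 rose, Vnn1 (1.19), and 1 fell, Cpt1a (-0.44), the entry step of mitochondrial fatty acid oxidation, and in PXR-/- mice none passed (limma; 5 had an unadjusted p under 0.05). The responses differed for 4 of the 10, and Cyp4a14 had the widest gap, at -2.55 (adjusted p = 0.0515) in WT and 2.57 (adjusted p = 0.171) in PXR-/- mice. Of 6 thyroid hormone targets, Me1, malic enzyme, rose in WT mice (0.50) and fell in PXR-/- mice (-1.66), Klf9 fell in WT mice (-1.03), and Dio1 fell in PXR-/- mice (-0.82). Of 6 retinoic acid targets, Rdh11 (0.68) and Stra6 (1.06) rose and Cyp26b1 (-0.78) fell in WT mice, while Cyp26a1 (-1.89) and Dhrs3 (-1.07) fell in PXR-/- mice.

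The lists that follow were called in WT mice at shares near or below the background of 17.7%: 16.7% of the FXR and SHP pathway, 11.1% of the LXR targets, 13.3% of the clock genes, 11.1% of the other nuclear receptors and 17.9% of the other coregulators. Of 12 genes of the FXR and SHP pathway, 2 fell in WT mice, Klb (-1.01), the FGF15 co-receptor, and Abcb4 (-0.50), the phospholipid exporter, and 1 fell in PXR-/- mice, Cyp8b1 (-0.94), which makes cholic acid. Of 9 LXR targets, Mylip fell in WT mice (-1.20) and Pltp in PXR-/- mice (-1.83). Of 15 clock and output genes, Clock fell in both genotypes (-0.59 and -1.10), Per1 fell in WT (-0.86) and rose in PXR-/- mice (0.83), and Per2 rose in PXR-/- mice (1.26). Of 9 other nuclear receptors outside the listed genes, Esr2 fell in WT mice (-1.11), and none passed in PXR-/- mice (limma; 2 had an unadjusted p under 0.05). Of 28 other coregulators, 1 rose and 4 fell in WT mice, and Ppargc1a, the coactivator of PPAR alpha and HNF4 alpha in fasting, fell the most (-2.24, adjusted p = 0.0129). It gave -0.02 in PXR-/- mice, and the responses differed (-2.22, adjusted p = 0.0211). Trim24 rose (0.69) and Cited2 fell (-0.74) in PXR-/- mice.

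**Figure D5:**
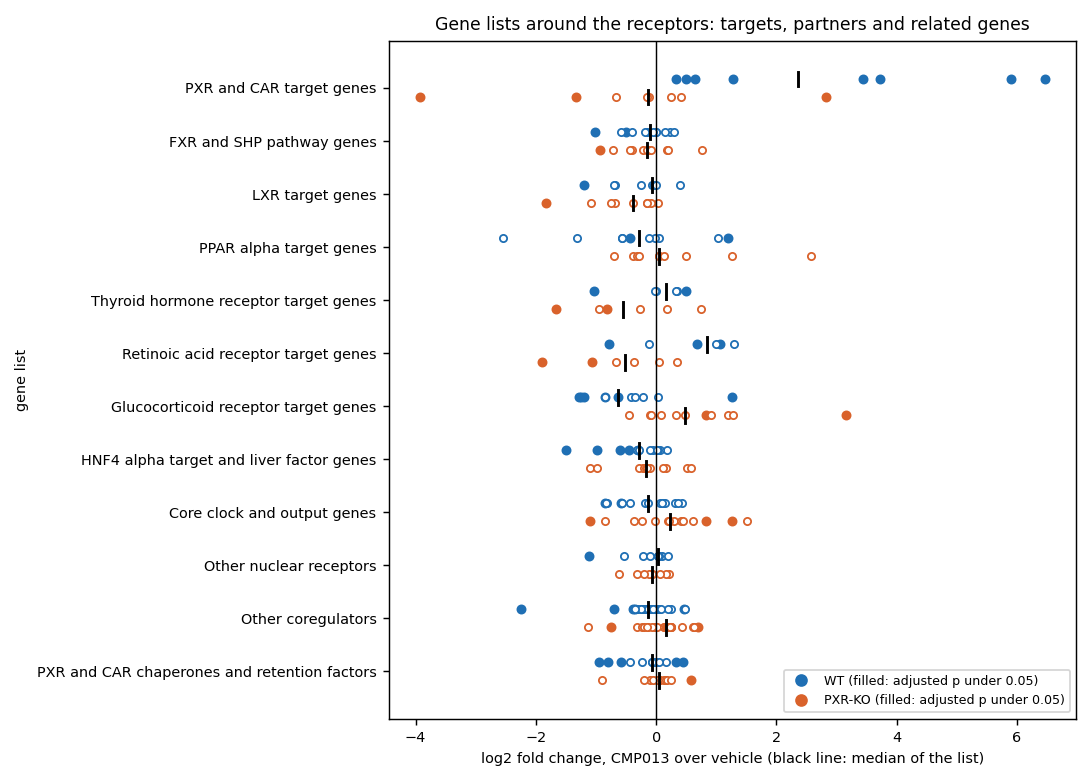
Log2 fold change of CMP013 over vehicle for the genes of 12 lists, WT in blue and PXR-/- in orange (filled: adjusted p under 0.05; black line: median of the list). PXR and CAR target genes lie above 0 in WT mice, and the glucocorticoid receptor targets have medians of -0.64 in WT and 0.47 in PXR-/- mice.

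Marker genes of the cells in the liver were counted as well, beside 17.7% of all genes called in WT and 4.64% in PXR-/- mice. In WT mice 71.4% of the dividing cell, 66.7% of the endothelial and 33.3% of the macrophage markers were called. The share was 25% for the stellate cell, the lymphocyte and neutrophil, and the hepatocyte markers, and 0% for the biliary markers. No list was tested. Of 9 markers of the sinusoidal endothelium 6 fell in WT mice (median -0.48), and the mean log2 ratio of the list was -0.46 to -0.32 in WT CMP013 against -0.14 to 0.10 in WT vehicle animals. Of these 9, 1 rose and 2 fell in PXR-/- mice, with list means of -0.35 to 0.02 with CMP013 and -0.05 to 0.03 with vehicle. Of 9 macrophage markers 3 fell in WT (list means -0.47 to -0.14, vehicle -0.44 to 0.20) and 2 rose in PXR-/- mice, Marco by 4.22 and Cd68 by 1.11 (list means 0.36 to 0.72, vehicle -0.55 to 0.62). Of 7 markers of dividing cells 5 rose in WT mice (list means 0.56 to 1.47, vehicle -0.53 to 0.30) and 0 passed in PXR-/- mice (limma; 3 had an unadjusted p under 0.05), where the list means were -1.01 to -0.36 and those of vehicle -0.23 to 0.14. Of 8 stellate cell markers 2 fell in WT mice (list means -0.38 to -0.02, vehicle -0.17 to 0.20) and none passed in PXR-/- mice (1 with an unadjusted p under 0.05; -0.30 to -0.03, vehicle -0.08 to 0.07). Of 8 lymphocyte and neutrophil markers 2 rose in WT (S100a8 and S100a9; list means -0.09 to 0.17, vehicle -0.30 to 0.29) and 1 rose in PXR-/- mice (list means 0.25 to 1.00, vehicle -0.06 to 0.004). No biliary marker of 5 passed, or had an unadjusted p under 0.05, in either genotype (list means -0.20 to 0.18 in WT and -0.07 to 0.61 in PXR-/- CMP013 animals, -0.44 to 0.32 and -0.31 to 0.21 with vehicle). Of 8 hepatocyte markers 2 fell in WT mice, Ass1 (-1.08) and Fgb (-0.29), with list means of -0.30 to -0.09 with CMP013 and -0.10 to 0.11 with vehicle, and none passed in PXR-/- mice (1 with an unadjusted p under 0.05; -0.33 to -0.15, vehicle -0.14 to 0.16). Their part in the changes of the receptor genes was not tested, and in whole liver fewer cells of a type and less RNA per cell cannot be told apart. With ratios alone, no marker can be called absent from these livers.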

How the data were processed

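Liver RNA of 20 mice was hybridised to 1 Affymetrix array each. The authors processed the arrays in Rosetta Resolver and deposited, per the labels and methods, log10 ratios of each animal's intensity over the mean of the same genotype's 5 vehicle animals, limited to 2 in size. The table used here holds no intensities, detection calls or p-values, so it gives neither background nor levels. The raw array files, deposited too per the methods, were not used here. All 20 columns were used and none has a missing value.

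Values were converted to log2. Groups came from the sample labels. CMP013 was compared with vehicle within each genotype (10 arrays), and the 2 responses with each other (20 arrays), with limma 3.58.1 in R 4.3.3 (lmFit, eBayes) and Benjamini-Hochberg adjustment over all 45037 probe sets. No filter was used. Of these probe sets 34945 name 1 gene in the platform annotation, 932 several and 9160 none. Each gene is given by 1 probe set naming that gene alone, without _s_ or _x_ in its name where possible, then the one with the smallest standard deviation among vehicle animals. The fit was tested on simulated data with the spread of these arrays and 100 changed probe sets of each size. Log2 changes of 0.5 were recovered in 12% (WT), 15% (PXR-/-) and 7% (difference) of cases. For changes of 1 the shares were 47%, 52% and 33%. In the data more probe sets passed than were changed in the simulation: 6480 (WT), 1645 (PXR-/-) and 4936 (difference). The adjustment is stricter where fewer probe sets change, so these shares may be lower than the recovery in the data. A gene that did not pass may still have changed.

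The genes and lists were chosen with earlier results of these data known. Named are Nr1i2, Nr1i3, Hnf4a, every listed gene with a called probe set, up to 4 called genes of each further list, and other genes where a sentence needs a value. Animals are separate, so n is 5 per group; array number limits precision. Upstream windows came from RefSeq (GRCm38.p6). Figures were drawn with matplotlib 3.10.9. Alternatives covered variance settings, scaling, array weights, a replicate block, all groups in 1 fit, left-out animals, the probe set rule, a filter on spread and a fold threshold.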

Additional observations from a re-analysis of the deposited data

Results flagged for a closer look

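In 156 groups of 5 animals (39 genes, 4 groups each), 12 had 1 animal far from the others by Dixon's criterion, where chance gives about 1 in 20. On the log2 ratio scale these were Hnf4a in PXR-/- vehicle replicate 2 (-0.40) and PXR-/- CMP013 replicate 4 (0.55), Esr1 in WT vehicle replicate 5 (-0.28), Nr0b2 in PXR-/- CMP013 replicate 1 (-0.95), Nr1d1 in WT vehicle replicate 2 (-0.80), Thrb in WT CMP013 replicate 1 (-0.69), Rara in PXR-/- CMP013 replicate 5 (0.42), Rxrb in PXR-/- vehicle replicate 4 (-0.35), Hnf4g in WT vehicle replicate 5 (0.35) and PXR-/- vehicle replicate 4 (-0.45), Nr4a2 in PXR-/- vehicle replicate 5 (0.25), and Nrip1 in WT vehicle replicate 1 (0.37). PXR-/- vehicle replicates 2 and 4, which stand apart on the second principal component, hold 3 of the 12.

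The responses of WT and PXR-/- mice differed (limma, contrast of the responses, WT minus PXR-/- on the log2 scale) for Nr1i3 (-2.31), Hnf4a (-0.82), Ppara (-0.60), Nr2c1 (0.68), Esr1 (1.08) and Nr6a1 (0.98). Of these, Nr1i3 alone passed in both genotypes with opposite signs, and Esr1 rose in both. Hnf4a, Ppara, Nr2c1 and Nr6a1 also had values of opposite sign, but each passed in 1 genotype only. For these genes an opposite response was not shown: Hnf4a, Ppara and Nr2c1 did not pass in PXR-/- mice, nor Nr6a1 in WT mice.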

How the results depend on the processing

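The count of genes called moved as follows. In WT mice the 11 calls became 1 with quantile normalization, 2 when the replicate number entered as a block, 4 without the vehicle animals that stand apart, and, in 2 alternatives chosen after seeing the data, 4 with arrays shifted to the hepatocyte markers and 1 without WT CMP013 replicate 5 and the WT vehicle animals that stand apart. In PXR-/- mice the 6 calls became 3 with quantile normalization, 1 with the replicate block (Nr1i3) and 0 with limma's trend and robust variances, where 16 of the 39 genes had an unadjusted p under 0.05 and the lowest adjusted p of any probe set was 0.0536. Of the 6 differences, 2 were left with quantile normalization (Nr1i3 and Nr6a1) and 4 with the block. With each animal left out in turn the counts were 7 to 11, 4 to 7 and 6 to 6. The replicate numbers do not pair the animals: same-numbered animals correlated at -0.242 to 0.0651 in WT and -0.202 to 0.0471 in PXR-/- mice, 0 of 5 over 0.1 in each. Turned in direction were Rxra in WT mice with the mean over its probe sets (0.041), Rora with its probe set of largest change in WT mice (0.60) and in the difference (0.77), and the Thra difference with the mean (-0.40) or the largest probe set (-1.04). The causes were not tested. Over the 3 counts and the 39 genes, single animals left out aside, 1109 values kept direction and call, 80 lost the call, 19 gained it and 85 moved (a count by over 1.5 times, or the sign of a value called under neither setting). The table used here gives no signal over background, so genes at background cannot be told from others.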
